A study of Mus musculus with 6 samples.

Results

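The genes described here are 8 interferon-inducible GTPases of the mouse, Gbp2, Gbp3, Gbp4, Gbp5, Gbp7, Irgm1, Igtp and Iigp1. They were taken by symbol from a table of 20394 genes, in which all 8 were found, and followed through 32953 CD45+ cells sorted from the synovium of mice with antigen-induced arthritis (AIA). C57BL/6 males, bought at 8 weeks of age, had been immunized under the skin with 10 μg of methylated bovine serum albumin (mBSA) in complete Freund's adjuvant and challenged on day 21 with 100 μg of mBSA in the knee. From the day of challenge they received vehicle (PBS, 2 samples) or 300 μg of the peptide PEPITEM (4 samples) into the peritoneum, and the joints were taken 3 days after the challenge, so that every sample comes from an arthritic animal and none from a healthy one. The 3′ ends of the RNA were sequenced cell by cell and counted as unique molecular identifiers (UMIs, tags that mark single RNA molecules). All samples share 1 table. Cell barcodes carry a suffix, 1 to 6, for the library, which the sources used here tie to no sample and so to no treatment. Vehicle and PEPITEM were therefore not compared, the libraries are not replicates of a group, and the values below are descriptions without a test.

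Interferon-gamma is secreted mainly by T cells and natural killer (NK) cells. It binds a receptor made of Ifngr1 and Ifngr2, which signals through the kinases Jak1 and Jak2 and induces factors such as Irf1 and a large set of defence genes. Guanylate-binding proteins (Gbp) and immunity-related GTPases (Irg) are among the most strongly induced of these genes in macrophages, where they gather on the vacuoles of intracellular microbes and help to open them. Type I interferons, which act through another receptor, induce many of the same genes.

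Among the guanylate-binding proteins, Gbp2 and Gbp5 are known for targeting vacuoles and for promoting inflammasome activation, and Gbp7 for supporting oxidative defence. Irgm1 is a regulatory member of the Irg family that holds other GTPases in check on host membranes, Igtp (also called Irgm3) is a second regulatory member, and Iigp1 is an effector that damages parasite vacuoles. In GENCODE M21 on GRCm38 all 8 are protein-coding. Gbp5 (chr3:142493978-142522344), Gbp7 (chr3:142530342-142550149), Gbp3 (chr3:142560026-142573209) and Gbp2 (chr3:142620602-142638008) lie in this order on the plus strand within 144 kb, with Gbp2b between Gbp3 and Gbp2. Gbp4 lies on the minus strand of chromosome 5 (chr5:105115767-105139586), Irgm1 (chr11:48861968-48871683, minus strand) and Igtp (chr11:58199556-58207591, plus strand) on chromosome 11. Reads of near-identical stretches between Gbp genes may have been split between them by the counting.

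Because the 8 genes were often detected in the same cells, as described further on, their promoters were searched for the DNA motifs of interferon signalling. RefSeq promoters of 6 of the 8 genes were used (GRCm38.p6, 250 bases before to 50 after a start, 7 windows because Gbp3 has 2 starts). Gbp4 and Iigp1 were not covered. Searched were the gamma-activated site (GAS, TTCNNNGAA) and the interferon-stimulated response element (ISRE) in the form GAAA, any 2 bases, GAAA, each on either strand. An ISRE match was found in 6 of the 7 windows, covering all 6 genes, compared with 3.44% of 32851 windows in all, and a GAS match in 3 windows (Gbp5, Gbp7, Igtp), compared with 8.30%. Both motifs were in the windows of these 3 genes, compared with 0.454% of all windows. No GAS match overlapped an ISRE match, while the 2 ISRE matches of Gbp3, and those of Irgm1, overlapped each other. A match is a run of letters and not a measured binding site. The stretches with the matches are shown 5′ to 3′ on the strand of the gene with the matches in capitals, for Gbp5 (chr3:142496759-142496899), Gbp7 (chr3:142530161-142530335), Igtp (chr11:58199381-58199555) and Gbp3 (chr3:142559869-142560025), and as 30 bases for Gbp2 (chr3:142620594-142620623) and Irgm1 (chr11:48871428-48871457, minus strand), where the match lies in an exon of a longer GENCODE transcript. A further GAS match of Gbp5, starting 245 bases before its start, lies outside the stretch shown.
Gbp5: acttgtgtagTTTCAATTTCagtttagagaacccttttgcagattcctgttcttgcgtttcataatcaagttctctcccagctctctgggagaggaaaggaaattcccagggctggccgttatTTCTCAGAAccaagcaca
Gbp7: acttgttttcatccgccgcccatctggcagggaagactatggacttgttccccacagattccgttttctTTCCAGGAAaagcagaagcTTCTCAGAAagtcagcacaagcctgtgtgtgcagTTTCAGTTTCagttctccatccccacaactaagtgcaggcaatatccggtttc
Igtp: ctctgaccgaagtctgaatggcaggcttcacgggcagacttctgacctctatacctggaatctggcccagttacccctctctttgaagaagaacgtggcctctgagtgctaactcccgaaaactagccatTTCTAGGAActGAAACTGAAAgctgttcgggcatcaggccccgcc
Gbp3: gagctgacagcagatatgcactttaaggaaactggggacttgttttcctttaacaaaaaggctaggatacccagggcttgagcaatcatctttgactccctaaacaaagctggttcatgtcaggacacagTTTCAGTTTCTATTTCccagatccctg
Gbp2: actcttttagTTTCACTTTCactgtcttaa
Irgm1: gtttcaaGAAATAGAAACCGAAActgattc
In Gbp7 the GAS matches started 106 and 87 bases and the ISRE match 53 bases before the RefSeq start, and in Igtp a GAS match (45 bases before) and an ISRE match (34 bases before) lay side by side.

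Cells were placed in classes by marker genes, none of which is an interferon gene of the lists used here. A cell joined the class of which it showed the most of 6 markers, with at least 3 detected and more than for any other class. This placed 29828 cells (90.5%) in 30 classes, of which 25 held at least 100 cells. A level is the sum of a gene's UMIs per 1000000 UMIs of the class (CPM). The libraries held 2919 to 9345 cells and 47273569 to 123367661 UMIs, with a median of 9923 to 14001 UMIs per cell, and 138 barcodes occurred in 2 or more libraries (276 cells). Intervals cover counting error only. In these pooled cells, fewer positive cells of a type and less RNA per cell are not fully told apart. The share of positive cells given beside the level can fall with both.

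The GTPases were found in every class, with a summed level of 231 CPM over all cells and a spread of 57.7-fold between the highest and the lowest of the 25 classes. Among the 25 classes, Foxp3 T cells (Foxp3 is the marker of regulatory T cells) were highest at 1259 CPM, followed by C1q macrophages at 651 CPM and Cd4 T cells at 496 CPM. Camp neutrophils, immature cells that still make the granule protein Camp, were lowest at 21.8 CPM, followed by granulocyte precursors at 59.4 CPM. In the order of the 25 classes, each of the 24 neighbouring pairs had overlapping library ranges, so that the order of neighbours is not resolved.

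**Figure D1:**
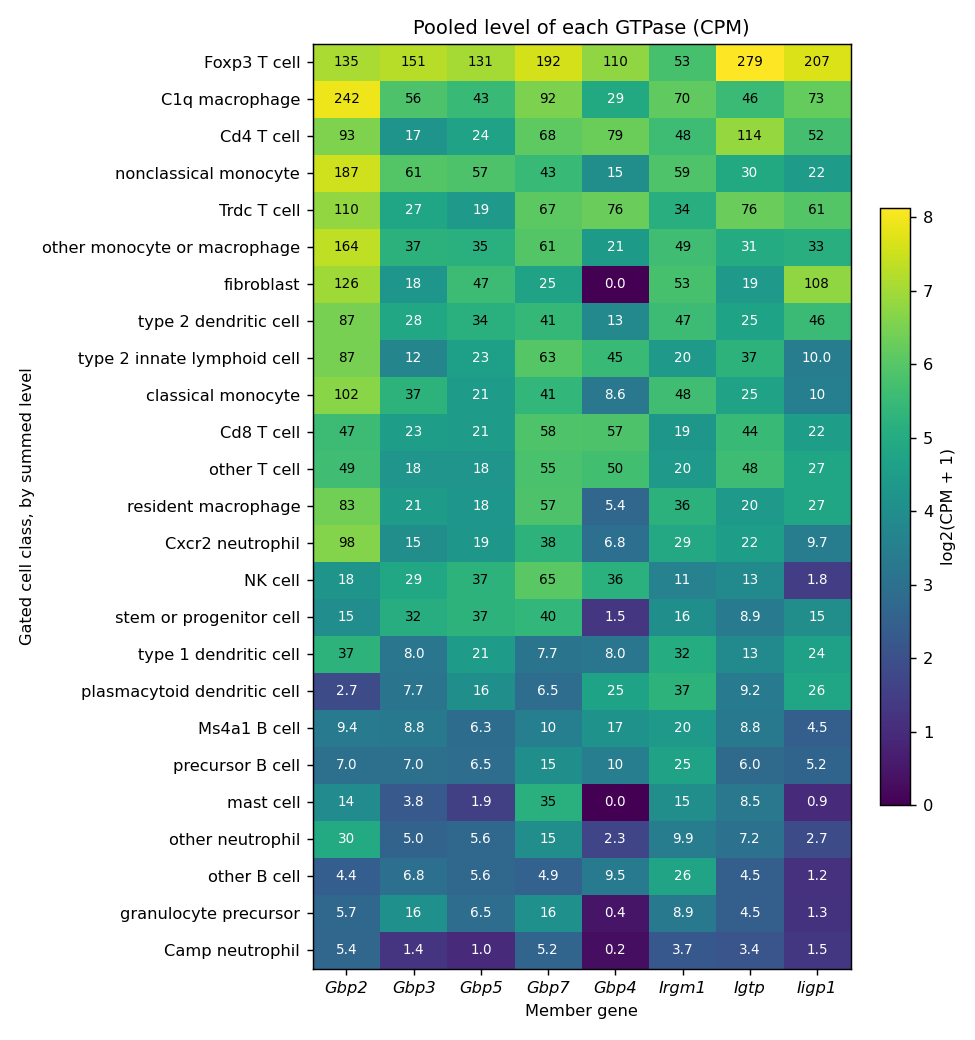
Pooled level of each of the 8 genes (columns) in 25 gated classes (rows, ordered by summed level). The number in a cell is CPM and the color is log2(CPM + 1). Gbp2 was highest in C1q macrophages (242 CPM), Igtp in Foxp3 T cells (279 CPM), and Gbp4 had no UMI in mast cells and fibroblasts.

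Gbp2 contributed 32.4% of all UMIs of the 8 genes. Its highest level was in C1q macrophages (242 CPM), with 187 CPM in nonclassical monocytes, 164 CPM in other monocytes or macrophages and 135 CPM in Foxp3 T cells. Its lowest level was in plasmacytoid dendritic cells at 2.72 CPM (18 UMIs in 517 cells), where Irgm1 (37.1 CPM), Iigp1 (26.5 CPM) and Gbp4 (25.1 CPM) led instead. Irgm1 was also highest in C1q macrophages (69.6 CPM). The other 6 genes had their highest pooled level in Foxp3 T cells, from 110 CPM for Gbp4 to 279 CPM for Igtp. Except for Gbp7, the library ranges overlapped those of the next class. Gbp4 was higher in Foxp3 T cells than in Cd4 T cells in 3 of 6 libraries, and Iigp1 (0 to 360 CPM) higher than in fibroblasts in 1 of 4. Gbp4 was not detected in mast cells, where 3 UMIs would have been 2.85 CPM, or in fibroblasts, where 3 UMIs would have been 1.46 CPM.

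The mix of the GTPases differed between the myeloid and the lymphoid groups compared here. Gbp2 made up 35.6% of the member UMIs of monocytes and macrophages (21.5% to 42.0% over the libraries) and 39.7% of those of neutrophils (38.4% to 42.7%). In T cells and NK cells it made up 15.4% (9.09% to 20.1%), below the range of both myeloid groups, and in B cells 9.20% (6.09% to 26.5%), a range that overlapped that of monocytes and macrophages. Gbp4 showed the opposite, with 3.68% (1.28% to 4.55%) in monocytes and macrophages and 2.86% (1.91% to 3.51%) in neutrophils, compared with 14.8% (11.4% to 19.4%) in T cells and NK cells and 15.8% (10.2% to 17.8%) in B cells. The Gbp4 ranges did not overlap between the myeloid and the lymphoid groups. Granulocyte precursors and type 2 innate lymphoid cells, among others, were in none of these groups. In them Gbp2 was 5.73 of a summed 59.4 CPM and 86.7 of 296 CPM, so that its split did not hold in every class. Their Gbp4 UMIs per Gbp2 UMI were 0.0672 and 0.517. By class, the Gbp4 UMIs per Gbp2 UMI were 0.122 in C1q macrophages, 0.0846 in classical monocytes and 0.0695 in Cxcr2 neutrophils, but 0.811 in Foxp3 T cells, 0.843 in Cd4 T cells, 1.21 in Cd8 T cells, 1.83 in Ms4a1 B cells and 2.03 in NK cells. The highest ratio was 9.22 in plasmacytoid dendritic cells, so that this class stood with the lymphoid cells. Irgm1 led in B cells with 29.7% of the member UMIs (20% to 35.5%). Igtp made up 18.0% in T cells and NK cells (13.5% to 19.4%) and 7.498% in monocytes and macrophages (5.60% to 9.18%). By class, Igtp was 23.0% in Cd4 T cells and 22.2% in Foxp3 T cells, but 6.36% in NK cells.

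Macrophages and monocytes were separated by gene markers. Resident macrophages (at least 2 of Lyve1, Cd163, Folr2, Timd4 and Vsig4) were set apart first. C1q macrophages were cells outside the resident class with at least 2 of C1qa, C1qb and C1qc. Further classes were classical monocytes (Ly6c2 and Ccr2) and others. The C1q genes summed to 7907 CPM in resident macrophages and 4535 CPM in C1q macrophages. The class named C1q macrophages is thus not the one with the most C1q RNA. In the 2132 C1q macrophages the summed level per library was 541, 82.7, 875, 766, 889 and 455 CPM for libraries 1 to 6. Library 2 was far below the remaining 5, which lay within a range of 455 to 889 CPM. For Gbp2 the values were 176, 18.5, 365, 253, 342 and 169 CPM, and for Iigp1 46.0, 1.34, 94.99, 109, 103 and 49.4 CPM. Both genes had their lowest value in library 2. In 1703 resident macrophages the summed level was 268 CPM (168 to 461 CPM), and C1q macrophages were higher in 5 of 6 libraries, library 2 being the exception.

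Classical monocytes reached 292 CPM over 3390 cells. Their values for libraries 1 to 6 were 519, 92.2, 652, 300, 273 and 202 CPM, again lowest in library 2. C1q macrophages were higher than classical monocytes by 2.23-fold in the pooled cells and in 5 of 6 libraries, with ratios between 0.897 and 3.26. Classical monocytes were in turn 4.92-fold above granulocyte precursors (59.4 CPM), in 6 of 6 libraries and without overlap of the library ranges. The precursors held little Gbp2 (5.73 CPM), and Gbp3 (16.1 CPM) and Gbp7 (16.0 CPM) were their leading members.

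Neutrophils differed by maturity marker. Cxcr2 neutrophils, which carry the chemokine receptor of circulating mature cells, had a summed level of 237 CPM (63.9 to 398 CPM over libraries), and Camp neutrophils one of 21.8 CPM (8.80 to 32.2 CPM). The ratio was 10.9-fold in the pooled cells, between 5.25 and 35.3 in single libraries, and the library ranges did not overlap. Gbp2 fell from 98.1 CPM in Cxcr2 neutrophils to 5.41 CPM in Camp neutrophils in the pooled cells. Markers of macrophages moved with this difference. C1qa, C1qb and C1qc, which neutrophils should lack, summed to 714 CPM in Cxcr2 neutrophils and 14.4 CPM in Camp neutrophils, and all 6 monocyte or macrophage markers were detected, at a summed 740 and 58.8 CPM. Without the cells that held a C1q UMI, the levels were 186 and 17.9 CPM, a ratio of 10.4. Without cells holding a UMI of C1q or of any of the monocyte or macrophage markers other than Ccr2, they were 140 and 13.8 CPM, a ratio of 10.1. The part of admixed macrophage RNA in the level itself was not tested further.

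**Figure D2:**
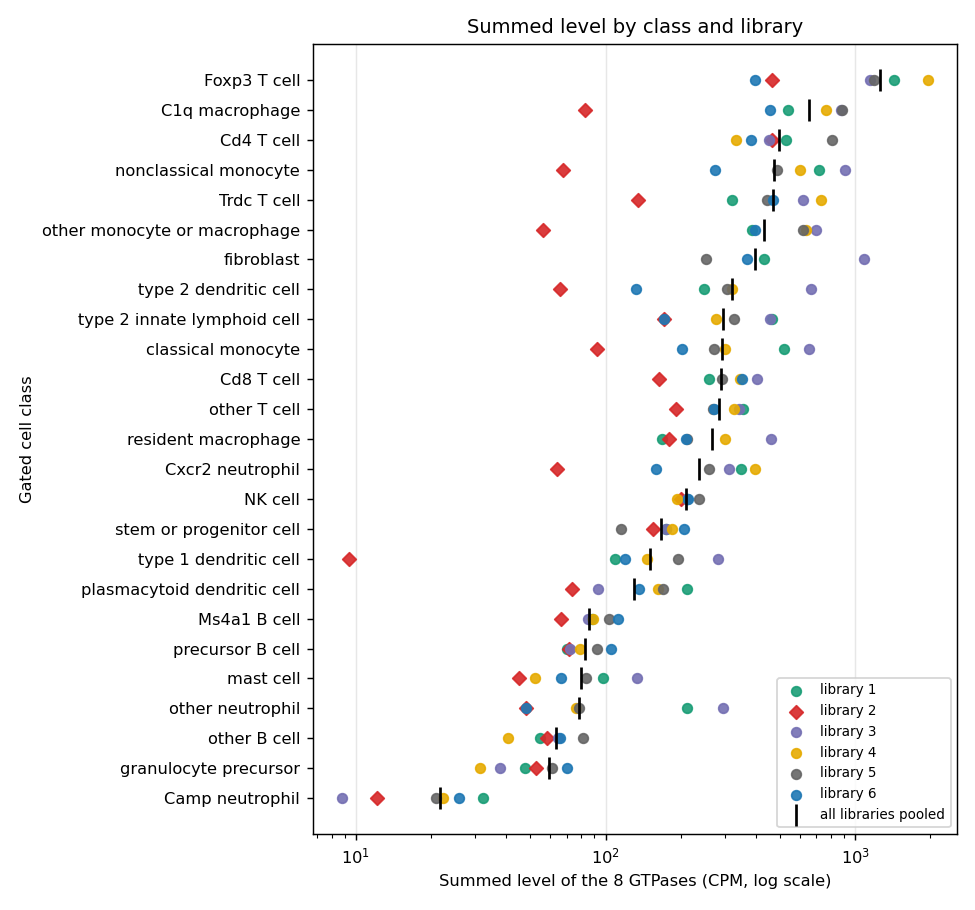
Summed level of the 8 genes in CPM (log scale) in each of 25 classes, with a point per library of at least 10 cells and a bar for the pooled value. The red diamonds of library 2 lie left of all other points in 13 classes, among them C1q macrophages (82.7 CPM, with 455 to 889 CPM in the other libraries) and Trdc, Cd8 and other T cells, and not in NK cells, Cd4 T cells and other neutrophils.

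T cells and NK cells are the cells that make the cytokine. Foxp3 T cells (144 cells, 12 to 49 per library) had 1436, 465, 1151, 1962, 1188 and 397 CPM in libraries 1 to 6. Libraries 2 and 6 were low, and the range of 397 to 1962 CPM overlapped that of Cd4 T cells, 332 to 808 CPM. Within libraries, Foxp3 T cells were at or above Cd4 T cells in 6 of 6, with ratios from 1.00 to 5.91. Igtp in Foxp3 T cells was 341, 45.6, 254, 424, 284 and 66.2 CPM, again with libraries 2 and 6 at the lower end. Monocyte or macrophage markers were higher in Foxp3 T cells than in Cd4 T cells, with a sum of 616 and 226 CPM, of which the chemokine receptor Ccr2, which T cells also make, was 480 and 133 CPM. C1q genes summed to 304 and 202 CPM, and B cell markers to 161 and 4.89 CPM. The part of these in the difference was not tested beyond the following. Without cells holding a C1q UMI, the summed GTPase level was 1281 CPM in 134 Foxp3 T cells and 514 CPM in 193 Cd4 T cells, a ratio of 2.49 compared with 2.54 in all cells.

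In NK cells the libraries lay close together. Their summed level was 213, 200, 212, 194, 236 and 214 CPM for libraries 1 to 6, and library 2 was not set apart. Gbp7 led (65.3 CPM), followed by Gbp5 (37.3 CPM) and Gbp4 (35.8 CPM), whereas Iigp1 was nearly absent with 6 UMIs in 306 cells (1.79 CPM). In the summed level Cd4 T cells were 2.35-fold above NK cells, in 6 of 6 libraries with no overlap of the ranges. The members differed in this. Gbp3 (0.606-fold, higher in 2 of 6 libraries) and Gbp5 (0.656-fold, 1 of 6) were lower in Cd4 T cells. Gbp7 was nearly equal (1.05-fold, 2 of 6). In Trdc T cells the sum was 470 CPM (135 to 733 CPM), and in Cd8 T cells 290 CPM (163 to 404 CPM). Among B cells the values were low and close together, at 85.7 CPM in Ms4a1 B cells and 82.4 CPM in precursor B cells, a ratio of 1.04.

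Dendritic cells were split in the same manner. Type 2 dendritic cells (322 CPM, 65.8 to 664 CPM) were above type 1 dendritic cells (151 CPM, 9.36 to 281 CPM) in 6 of 6 libraries, with ratios from 1.10 to 7.02 and overlapping ranges. In 97 migratory dendritic cells, too few for the ordered list, the sum was 513 CPM, with Gbp2 at 227 CPM and Gbp5 at 143 CPM.

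Levels mix the number of positive cells with the amount in each. With every cell thinned to 3000 UMIs, so that depth did not differ, at least 1 of the 8 genes was detected in 81.3% of Foxp3 T cells (Wilson 95% interval 74.0% to 86.9%), 55.6% of C1q macrophages (53.4% to 57.7%) and 50.2% of Cd4 T cells (43.4% to 57.1%). The share was 36.9% in classical monocytes, 30.7% in resident macrophages, 22.1% in Cxcr2 neutrophils, 18.1% in Ms4a1 B cells and 5.23% in Camp neutrophils. NK cells, at 44.3% (38.8% to 49.97%), were above classical monocytes although their summed level was lower (211 and 292 CPM), so that the UMIs of monocytes lay in a smaller share of cells. Without thinning, the share was 81.8% in C1q macrophages (17831.5 UMIs per cell at the median) and 33.0% in Cxcr2 neutrophils (5026 UMIs). In C1q macrophages, Gbp2 was found in 31.5% of thinned cells, Gbp7 in 20.7% and Gbp4 in 6.97%.

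Cells that expressed 1 member tended to express others in several classes, but not in every class. Had the 8 genes been detected independently of each other, 198 of 2081 thinned C1q macrophages would have held 3 or more of them. Counted were 364 cells, a ratio of 1.83. The cells with none were also more frequent, at 44.4% compared with 27.0% if independent. Part of this came from differences between libraries, since a ratio of 1.58 remained when the expected number was summed within libraries. In classical monocytes the ratio was 3.65 (254 cells compared with 69.6), or 2.70 within libraries, in resident macrophages 4.68 (63 compared with 13.5), or 3.99 within libraries, and in Cd4 T cells 2.05 (34 compared with 16.6). In all 4 classes each of the 28 pairs of genes was found together more often than the product of their shares gives. Pairs of other genes with like shares were not computed, so that these counts have no background to be read against. In C1q macrophages the pair ratios ran from 1.54 for Gbp7 with Irgm1 to 3.42 for Gbp5 with Gbp4. In Foxp3 T cells 51 cells held 3 or more genes compared with 49.9, a ratio of 1.02, but the cells with none were in excess there too (26 compared with 11.1), as were those with 6 (7 compared with 0.593), and 26 of the 28 pair ratios were above 1. In NK cells 13 of 28 pair ratios were above 1, and the cells with none were 166 compared with 164. Cells with 3 or more genes were 8 there compared with 3.57. Pair ratios above 1 were 7 of 21 in stem or progenitor cells, 14 of 28 in plasmacytoid dendritic cells and 10 of 28 in other B cells. The size of the ratio depended on depth and on the UMIs required. With cells thinned to 6000 UMIs it was 1.12 in C1q macrophages, 1.97 in classical monocytes, 2.48 in resident macrophages, 1.15 in Cd4 T cells and 0.869 in Foxp3 T cells. With 2 UMIs of a member required it was 7.52, 37.4, 42.8, 17.97 and 2.62 in the same order.

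**Figure D3:**
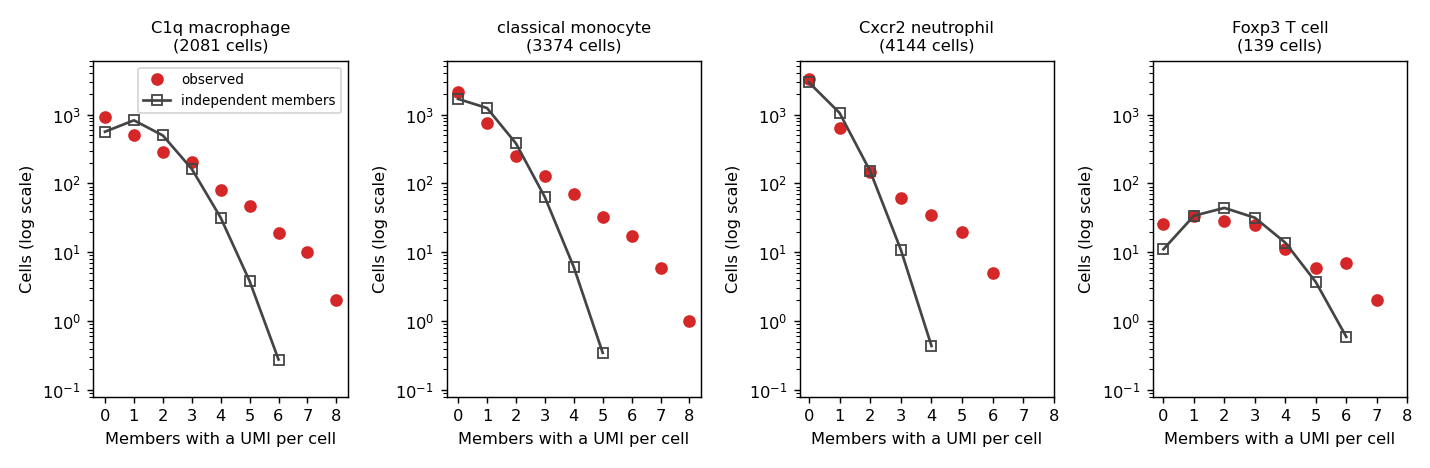
Cells (log scale) by the number of the 8 genes detected, each cell thinned to 3000 UMIs, as observed (red points) and as computed for independent genes with the same shares (squares joined by a line, drawn down to 0.1 cells). In C1q macrophages, classical monocytes and Cxcr2 neutrophils the points lie above the line from 3 genes on, and in Foxp3 T cells the counts of cells with 3 or more genes were 51 observed and 49.9 computed.

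The largest ratio of all classes was in other neutrophils, at 42.0 (56 cells compared with 1.33). It was 19.2 within libraries, 19.3 at 6000 UMIs and 1796 with 2 UMIs required. The summed level of other neutrophils was 78.2 CPM, and 55.2 CPM without cells holding a C1q UMI. It was 28.6 CPM when cells with monocyte or macrophage markers other than Ccr2 were also left out. The part of macrophage RNA in the ratio of other neutrophils was not tested. Type 1 dendritic cells had a ratio of 22.4, from 5 cells. Among the classes with at least 100 cells of 3 or more genes, Cxcr2 neutrophils had the largest excess. There 121 cells were counted compared with 11.4, a ratio of 10.6 (8.51 within libraries, 4.09 at 6000 UMIs and 169 with 2 UMIs required). These Cxcr2 neutrophils with 3 or more genes were not typical of their class. Their 6 neutrophil markers summed to 7961 CPM, compared with 24098 CPM in the Cxcr2 neutrophils with none of the 8 genes, and their C1q genes to 851 CPM, compared with 245 CPM. Monocyte or macrophage markers other than Ccr2 were at 559 and 309 CPM. Without cells holding a C1q UMI the ratio was 13.4 (85 cells compared with 6.34). The part of macrophage RNA in this ratio was not tested further. In classical monocytes with 3 or more genes and with none, the monocyte or macrophage markers other than Ccr2 were at 1289 and 938 CPM. The C1q genes were at 14.4 and 7.05 CPM there and the neutrophil markers at 297 and 333 CPM.

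Genes that accompanied the GTPases were sought among the cells of each class, by the ratio of levels (10 CPM added) between thinned cells with 3 or more members and with none. In C1q macrophages (364 and 925 cells) Cxcl9, a chemokine induced by interferon-gamma, came first with 781 CPM compared with 30.3 CPM, a ratio of 19.6. Cxcl10, a related chemokine, followed with 895 and 55.9 CPM, and then Ifi47, another interferon-inducible GTPase, with 245 and 25.9 CPM. The remaining 7 of the 10 leading genes were Serpina3g, AW112010, Ccl5, Rsad2, Fam26f, Gbp8 and Ifit2, with ratios from 6.28 to 5.01. All 10 were higher in the cells with 3 or more members in each of the 5 libraries that could be compared. Here and in the classes below, the 10 genes were picked by ratios pooled over libraries in these same cells. Their counts of libraries are therefore not independent of the choice, and the pooled ratios include differences between libraries. The median ratio of all 3442 genes of sufficient level was 1.01. Irf1 stood at 277 and 116 CPM, while the receptor chain Ifngr1 was at 188 and 234 CPM.

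In classical monocytes (254 and 2128 cells) Cxcl9 and Cxcl10 again led, with ratios of 44.6 and 35.5, followed by Ifi205, Rsad2, Ifit2, Cd274, Serpina3g, Ly6a, Isg15 and Ifi47. Cd274, which encodes the inhibitory ligand PD-L1, was at 244 CPM in cells with 3 or more members and 16.6 CPM in cells with none. In Cxcr2 neutrophils (121 and 3230 cells, with the marker difference given above) Cxcl10 and Cxcl9 led with ratios of 78.04 and 47.6, followed by Ifi47, Ifit1, AW112010, Herc6, Ifit3, Ifit2, Ccl5 and Rsad2. AW112010 and Ccl5 were higher in 3 of the 4 libraries that could be compared and the other 8 in 4 of 4, and the median ratio of all genes was 1.20 there and 1.03 in classical monocytes. Ifit1, Ifit2, Ifit3, Rsad2 and Isg15 are known as genes of type I interferons, so that genes of both interferon types accompanied the members in these 3 classes. Ifngr1 had ratios of 0.812, 0.906 and 0.892 in the 3 classes.

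Across the 25 classes, the pattern of the 8 genes was compared with that of 12342 other genes by Pearson's r of log2(CPM + 1). The classes share libraries and differ in depth, and r is a description. The most alike was B2m (r = 0.88), the light chain of class I major histocompatibility molecules, with 3340 CPM in C1q macrophages. Syt11, Parp14, 3110043O21Rik, Ifi47, Rap1gds1, S100a10, Tgtp2, Tmem65 and Eva1b followed, with r from 0.87 to 0.83. Among these, Ifi47 and Tgtp2 are GTPases of the Irg family, and Parp14 is an interferon-induced ADP-ribosyltransferase. Over the listed genes of at least 10 CPM in a class, the median r was 0.66 for 9 GTPases that are no members, 0.57 for 13 genes of the interferon-gamma pathway, 0.46 for 10 type I interferon genes and 0.45 for 14 interferon-gamma target genes, beside 0.12 for all genes compared. Of the members themselves, Igtp was most like the rest (r = 0.90) and Gbp4 least (r = 0.59). The closest pair was Gbp3 with Gbp5 (r = 0.90) and the most distant Gbp2 with Gbp4 (r = 0.38).

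Of the 12 other GTPases in the table, 9 reached 10 CPM in a class, and Ifi47, with 19759 UMIs in all cells, had more than each of the members except Gbp2 (36469 UMIs). Ifi47 was highest at 120 CPM in Foxp3 T cells, where Irgm2 (90.3 CPM), Gvin1 (50.3 CPM), Tgtp2 (21.4 CPM) and F830016B08Rik (17.2 CPM) also had their highest level. Gbp8 peaked in Trdc T cells (57.3 CPM), Gm4951 in fibroblasts (31.6 CPM), Gbp9 in Ms4a1 B cells (21.4 CPM) and Tgtp1 in Cd4 T cells (18.2 CPM). Gbp2b, Gbp6 and Gbp10 did not exceed 4.21 CPM in any class.

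The cytokine itself was rare. Ifng had 1829 UMIs in all cells, of which 83.7% lay in gated T cells and NK cells, and its highest level was 129 CPM in Cd8 T cells. Ifngr1 was highest in NK cells (877 CPM), which held only 4.17 CPM of Ifngr2, while Ifngr2 was highest in nonclassical monocytes (192 CPM). Jak1 was highest in NK cells (819 CPM). Jak2 peaked in type 2 innate lymphoid cells (1133 CPM) and Irf8 in plasmacytoid dendritic cells (1710 CPM). The targets Psmb8 (1034 CPM), Psme1 (859 CPM), Psmb9 (513 CPM), Cxcl9 (376 CPM) and Tap1 (222 CPM) all had their highest level in type 1 dendritic cells, where the 8 GTPases summed to 151 CPM. Irg1 (also called Acod1), which makes itaconate, was highest in Cxcr2 neutrophils (1820 CPM), and its pattern across classes was unlike that of the GTPases (r = -0.05).

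Library 2 was lower than every other library in 13 of the 24 classes with values in 6 libraries, a pattern that was singled out after the values had been seen. These were 7 classes of monocytes, macrophages, mature neutrophils and type 1 and type 2 dendritic cells, and also Trdc T cells (135 CPM, the next library 320 CPM), Cd8 T cells (163 and 261 CPM), other T cells (192 and 271 CPM), Ms4a1 B cells (66.0 and 84.9 CPM), plasmacytoid dendritic cells and mast cells. In C1q macrophages all 8 genes were at most 0.5 times their level in every other library, as were 0.964% of the 7571 genes of 10 CPM or more, and all 8 had their lowest value in library 2, as did 22.0% of the genes. In classical monocytes 7 of 7 members of at least 10 CPM were lowest in library 2, as were 13.2% of all genes, and 3 of 7 were at most 0.5 times every other library, as were 0.196%. In Cxcr2 neutrophils 5 of 6 were lowest (14.2% of all genes) and 4 of 6 at most 0.5 times (0.633%). The C1q macrophages of library 2 were 244 cells with a median of 17793 UMIs, compared with 17844.5 UMIs in the other libraries, and their C1q level of 4331 CPM lay within the 3805 to 5372 CPM of the others. Their neutrophil markers (1232 CPM, 746 to 1161 CPM elsewhere) and B cell markers (136 CPM, 5.01 to 109 CPM elsewhere) were the highest of the 6 libraries, and the part of these in the result was not tested. In Cxcr2 neutrophils the C1q genes were also lowest in library 2, at 264 CPM with 407 to 1302 CPM elsewhere.

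**Figure D4:**
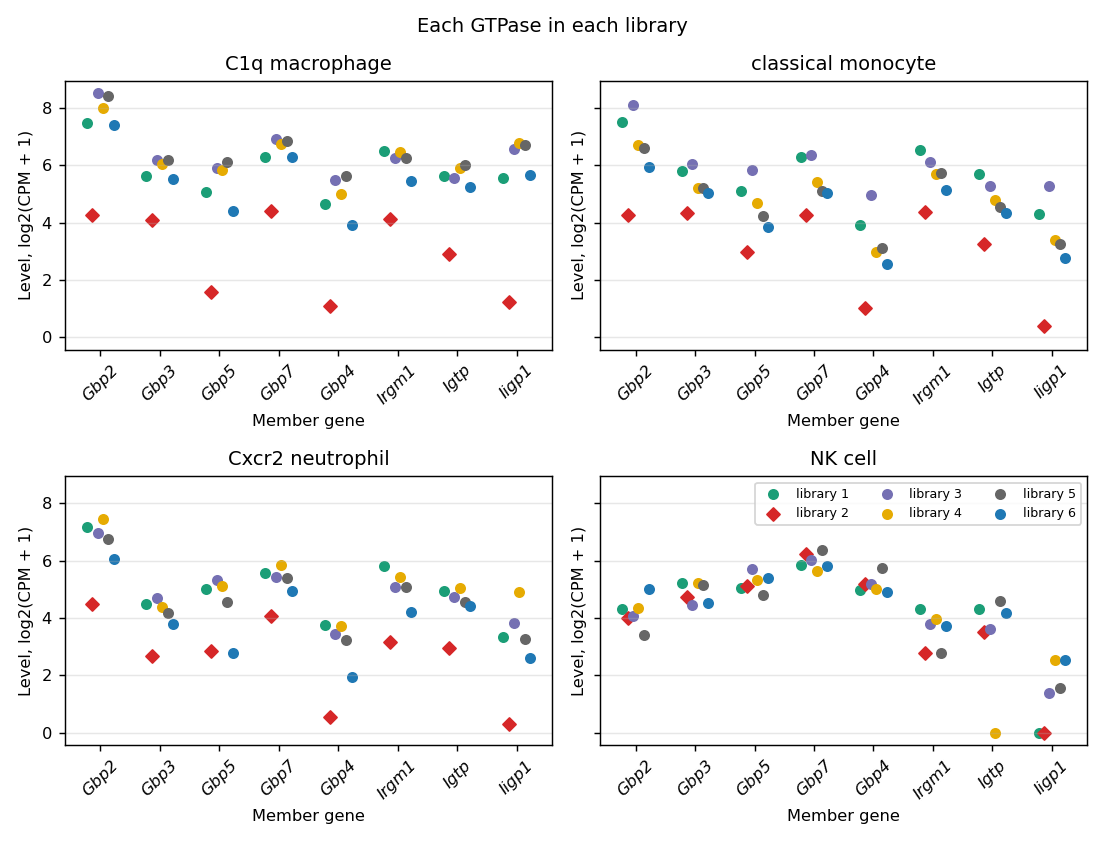
Level of each of the 8 genes, as log2(CPM + 1), in each of the 6 libraries for 4 classes. Library 2 (red diamonds) is lowest for all 8 genes in C1q macrophages and classical monocytes, and lies among the other libraries for most genes in NK cells (summed level 200 CPM, with 194 to 236 CPM elsewhere).

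The low values of library 2 were not found in all cells. In NK cells 0 of 7 members were lowest in library 2 (12.8% of all genes) and 0 at most 0.5 times every other (0.68%). In resident macrophages 2 of 7 were lowest (31.2%) and 1 was at most 0.5 times (1.89%). In Ms4a1 B cells 1 of 3 was lowest (11.6%), although their summed level was lowest in library 2 (66.0 CPM, the next library 84.9 CPM). Granulocyte precursors (52.9 CPM, 31.3 to 69.9 CPM elsewhere) and stem or progenitor cells (155 CPM, 115 to 206 CPM elsewhere) had summed values among those of the other libraries, as did Cd4 T cells (465 CPM in 19 cells) and resident macrophages (179 CPM in 45 cells). Library 2 was also not the lowest in the largest class, other neutrophils (47.9 CPM, with 47.8 CPM in library 6), or in Camp neutrophils (12.2 CPM, with 8.80 CPM in library 3). Other interferon genes were unevenly low in C1q macrophages of library 2. Of 12 genes of the pathway list, 8 were lowest there and 4 at most 0.5 times every other library. Of 13 interferon-gamma targets, 12 were lowest and 8 at most 0.5 times (22.0% and 0.964% of all genes). In C1q macrophages of library 2, Irf1 was at 38.6 CPM (130 to 178 CPM) and the inhibitor Socs1 at 8.25 CPM (22.8 to 45.8 CPM). Cxcl9 was at 18.5 CPM (132 to 581 CPM) and Cxcl10 at 64.0 CPM (157 to 402 CPM elsewhere). The receptor genes Ifngr1 and Ifngr2 were within the range of the other libraries.

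**Figure D5:**
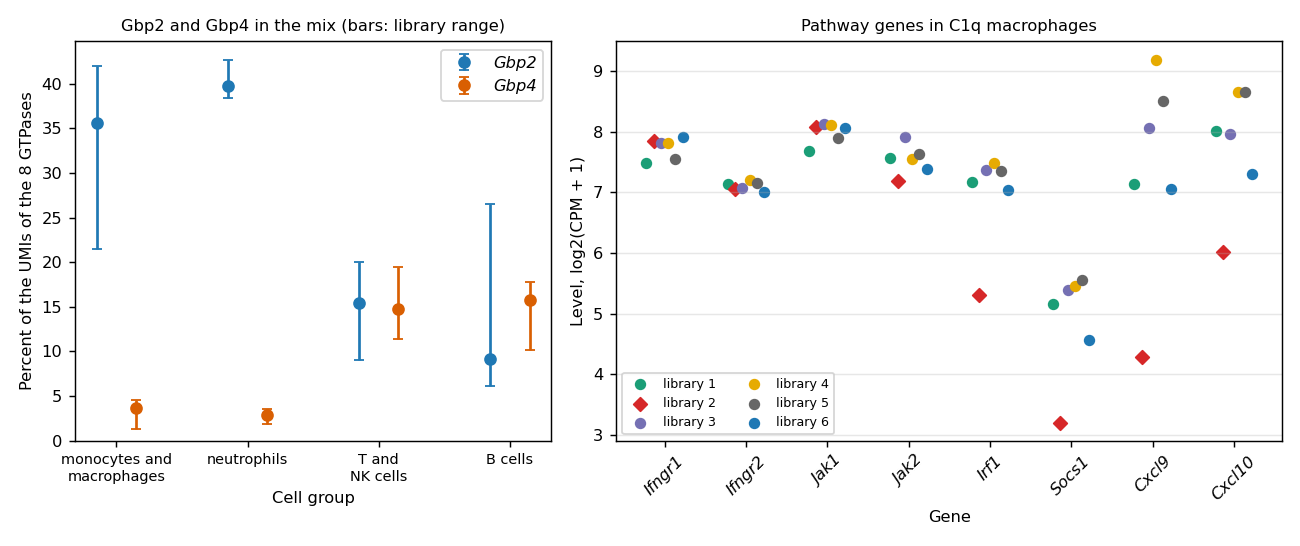
Left, percent of the UMIs of the 8 genes that belong to Gbp2 (blue) and Gbp4 (orange) in 4 cell groups, pooled over libraries, with bars for the lowest and highest library. Right, level of pathway genes as log2(CPM + 1) in C1q macrophages of each library, where library 2 (red diamonds) is lowest for Jak2, Irf1, Socs1, Cxcl9 and Cxcl10 and lies among the others for Ifngr1 and Ifngr2.

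The level of the cytokine gene was also read in each library. It is RNA and not the cytokine that reached the cells, and a link to the GTPase level was not tested. In gated T cells and NK cells, Ifng was at 96.4, 101, 50.7, 46.7, 96.7 and 196 CPM in libraries 1 to 6, and library 2 was the second highest. Of its lymphocytes, 27.0% held an Ifng UMI, the highest share of the 6 libraries (14.0% to 26.03% elsewhere). These cells were not thinned. Median UMIs in library 2 were above those elsewhere in NK cells (9460 and 8750.5) and Cd8 T cells (12219 and 9892). In Cd4 T cells they were below (7818 and 8220). NK and Cd8 T cells were 76 and 41 of the 230 lymphocytes of library 2. In all libraries they were 306 and 218 of 1411. The shares were not matched for depth, and neither levels nor shares for this mix. Libraries 3 and 4, with the lowest Ifng levels, had 875 and 766 CPM of the GTPases in C1q macrophages. The gated T cells and NK cells of library 2 were 230 of its 5809 cells (3.96%), within the 2.66% to 9.08% of the other libraries. Type I interferon genes were also low in C1q macrophages of library 2, where 9 of 9 had their lowest value (22.0% of all genes). Of these, 2 were at most 0.5 times every other library (0.964% of all genes). Isg15 was at 86.7 CPM in library 2 and Rsad2 at 38.6 CPM, and both were highest in library 1, at 756 and 313 CPM. Other classes with low GTPases in library 2 differed in this. In classical monocytes 2 of 9 type I interferon genes were lowest (13.2% of all genes), and in Cxcr2 neutrophils 2 of 8 (14.2%). In both classes 0 were at most 0.5 times every other library. Nonclassical monocytes had 8 of 9 lowest in library 2, from 18 cells there, and type 1 dendritic cells 5 of 7, from 17 cells. The share of all genes was not computed for nonclassical monocytes and type 1 dendritic cells, so that their counts have no background to be read against.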

How the data were processed

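CD45+ synovial cells of 6 AIA samples were sequenced with the Chromium 3′ v3.1 chemistry. The authors aligned reads to mm10 with Cell Ranger (version 7 in the processing notes), removed ambient RNA with SoupX and doublets with DoubletFinder, and filtered cells with Seurat. They deposited 1 table of whole UMI counts that is not scaled for depth. It also stores entries of 0, which make up 1.44% to 3.34% of the entries of the 8 genes and were read as 0.

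Cells were classed by markers (18 classes of 6 markers, then subsets by single genes) without clustering, and no further doublet caller was run. A level is the summed counts per 1000000 UMIs of a class. Shares of positive cells and co-expression used cells thinned to 3000 UMIs (seed 1, shallower cells left out), and expected co-expression was computed from the shares of the single genes. Genes named are the 8 members, 4 fixed lists, the 10 genes most alike across classes of at least 100 cells (10 CPM or more in a class), and the 10 with the highest ratio between cells with 3 or more members and none (50 CPM or more in the former, both sets of at least 100 cells, which Cd4 T cells did not reach). The members and lists were chosen with earlier results of these data known. Intervals are exact Poisson (levels) or Wilson (shares) at 95%, and cover counting error only. No test was run, since no cell has a treatment label. Gene positions were from GENCODE M21 and promoters from RefSeq. The formulas for co-expression and likeness, written again in separate code, were tried on simulated data. The scripts ran in Python 3.11.15 with pandas 2.3.3 for tables, scipy 1.17.1 for intervals, matplotlib 3.10.9 for figures and numpy 2.4.6. Acod1 was listed under its older symbol Irg1, and Gbp11 was not among the genes analysed here. Depth per library is given with the report's account of the cells. A gene of the pathway list is not reported here by name.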

Additional observations from a re-analysis of the deposited data

How the results depend on the processing

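No paired analysis was possible because no test was run and no library could be tied to a sample. Summed levels were recomputed in every class of at least 100 cells and are given here for 3. In these 3 classes, 27 of 36 recomputed values lay outside the counting interval of the main value. In the other classes 92 of 264 did. In C1q macrophages (651 CPM) the level was 698 CPM with classes set by profile likelihood, 629 CPM as a mean over cells, and 567 to 722 CPM with 1 library left out. In classical monocytes (292 CPM) it was 297 CPM with at least 4 markers, 211 CPM by likelihood, 321 CPM as a mean over cells, 287 CPM as the median library, and 257 to 329 CPM with 1 library left out. In Cxcr2 neutrophils (237 CPM) it was 224 CPM with at least 4 markers, 245 CPM with at least 2, 275 CPM by likelihood, 198 CPM as a mean over cells, 285 CPM as the median library, and 209.5 to 267 CPM with 1 library left out. The share of positive C1q macrophages (81.8%) was 88.8% by likelihood, 55.6% and 69.7% at 3000 and 6000 UMIs, 62.4% with 2 UMIs required, and 78.8% to 85.3% with 1 library left out. Their co-expression ratio (1.83) was 1.52 by likelihood, 1.12 at 6000 UMIs, 7.52 with 2 UMIs required, 1.58 within libraries, and 1.64 to 2.05 with 1 library left out. The cause of these shifts was not tested. Foxp3 T cells came first, C1q macrophages second and Camp neutrophils last under each marker minimum, by likelihood and with each library left out. The likelihood classes were built from the profiles of the marker classes, so that they are not an independent check. Of the cells in marker classes of at least 100 cells, 70.8% kept their class by likelihood. By likelihood, library 2 was still below every other library in C1q macrophages (112 CPM, the next 555 CPM), classical monocytes (80.9 and 152 CPM) and Cxcr2 neutrophils (130 and 192 CPM). The expected number summed within libraries, and the values without shared barcodes or without cells holding C1q or macrophage marker UMIs, were chosen after seeing the data.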

Other observations

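The 3125 cells placed in no class had a summed GTPase level of 309 CPM (92.0 to 625 CPM over the libraries), with library 2 lowest, and Gbp2 at 104 CPM. Some classes were too small for the ordered list. In 9 endothelial cells the sum was 1473 CPM, of which Iigp1 was 792 CPM, and in 54 erythroid cells it was 211 CPM, with Gbp5 leading at 57.5 CPM. In fibroblasts, which the CD45+ sort should leave out, Gbp2 (126 CPM) and Iigp1 (108 CPM) led. Their B cell markers summed to 1268 CPM, and the part of other cells in these values was not tested.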
